A study of Mus musculus with 4 samples.

Results

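The semaphorin, plexin, neuropilin, ephrin, Eph receptor, SLIT, ROBO, netrin, UNC5 and DCC/NEO1 genes were examined in ID4-EGFP+ spermatogonia after deletion of *Cnot3*, which encodes a subunit of the CCR4-NOT deadenylase complex. Members were taken by gene symbol alone, and 70 of the 54920 genes in the count files belonged to these families. They comprised 35 ligand genes and 35 receptor genes, and 67 of the 70 had enough reads to be tested. RNA-seq had been performed on ID4-EGFP+ cells sorted at postnatal day (P) 8, with 2 control and 2 *Cnot3*-cKO libraries. Control mice were *Cnot3* flox/flox and carried the *Id4*-eGfp reporter without *Ddx4*-creER, although their samples are labelled wild-type. *Cnot3*-cKO mice carried the same floxed allele and reporter together with the tamoxifen-inducible *Ddx4*-creER transgene, which is driven by a germ cell promoter. Mice of both groups had been injected with tamoxifen (4-OHT) from P1 to P3. The sort was on EGFP alone, from testis suspensions, and the labels do not say whether a library came from 1 mouse or from several, so p-values measure the spread between these libraries, which may be technical.

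Guidance proteins were first described as cues that attract or repel growing axons, and the same proteins direct cell migration, vessel growth and cell sorting in many other organs. Semaphorins are secreted or membrane-bound ligands read by plexins, and most secreted class 3 semaphorins also need a neuropilin co-receptor. Ephrins are membrane-anchored ligands of the Eph receptor tyrosine kinases, so that signalling takes place where cells touch. SLIT proteins are secreted and bind ROBO receptors, and netrins are laminin-like secreted proteins bound by DCC, neogenin and the UNC5 receptors.

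Library totals lay between 22192964 and 43378493 reads, and both control libraries were deeper than either *Cnot3*-cKO library. Levels are given as CPM, that is, reads per 1000000 of the TMM-scaled library total, and levels of different genes are compared only per kb of exon. *Cnot3* itself had 2362 and 2114 reads in the controls against 435 and 571 after deletion, or 54.4 ± 5.94 against 19.6 ± 0.521 CPM (SD, n = 2), a log2 fold change of -1.48 (SE 0.13; edgeR quasi-likelihood test with Benjamini-Hochberg adjustment, adjusted p = 1.48e-05). In the summed level of 13 pan-germ cell markers, the controls had 8184 and 8642 CPM and the *Cnot3*-cKO libraries 7084 and 7453 CPM. Markers of undifferentiated spermatogonia summed to 1166 and 1053 against 1013 and 1054 CPM. Of these 9 genes, *Id4* and *Eomes* were called higher, *Gfra1* and *Etv5* rose by less than 2-fold, and *Zbtb16* and *Sall4* fell by less than 2-fold. Summed Sertoli cell markers were at 407.3 and 420.0 CPM in controls, compared with 1214 and 1192 CPM in *Cnot3*-cKO, with 12 of 13 genes called higher. Leydig cell markers summed to 367.7 and 322.4 against 830.6 and 896.3 CPM, with 4 of 6 called higher and *Insl3* at 0 in all libraries. Macrophage markers summed to 295.0 and 188.5 against 652.8 and 534.4 CPM, with 9 of 9 called higher. Endothelial markers summed to 44.72 and 43.11 against 59.51 and 66.13 CPM, with 2 of 8 called higher. Peritubular myoid markers summed to 14.65 and 16.88 against 20.92 and 25.52 CPM, with 0 of 6 called. This list went both ways. *Acta2*, *Des* and *Myh11* had log2 fold changes of 0.94, 0.73 and 0.33, and *Tagln*, *Cnn1* and *Myocd* of -0.63, -0.21 and -0.11. The part of these cells in the differences below was not tested. In bulk RNA, fewer cells of a type and less RNA per cell cannot be told apart.

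*Cnot3*-cKO libraries had higher levels of 11 guidance genes and lower levels of 4. The higher genes were the ligands *Sema3a*, *Sema3c*, *Sema3b*, *Sema5b*, *Sema6c*, *Sema7a* and *Ntn4* and the receptors *Plxnc1*, *Plxnb2*, *Nrp1* and *Epha2*. The lower genes were *Sema6b* and the netrin receptors *Unc5a*, *Unc5b* and *Unc5d*. A gene was called when its adjusted p was under 0.01 and its fold change above 2. The calls came from these same libraries, so a lack of overlap between the groups in a called gene adds no separate evidence. With 2 libraries per group, a gene or a sum that was not called can also lack overlap without a difference. The share of all tested genes without overlap is not given here. Of the 67 tested members, 16.4% were called higher, against 4.03% of all 23952 tested genes and 5.55% of the 15794 tested protein-coding genes. For lower calls the shares were 5.97% of the members, 0.735% of all tested genes and 0.95% of the protein-coding genes. With no limit on the fold change, 13 members rose and 10 fell, where 6.21% of all tested genes rose and 4.7% fell. The median log2 fold change was 0.04 over the members and 0.01 over all tested genes, and members lay on both sides of 0. The remaining 44 tested members did not pass the adjusted p threshold.

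**Figure D1:**
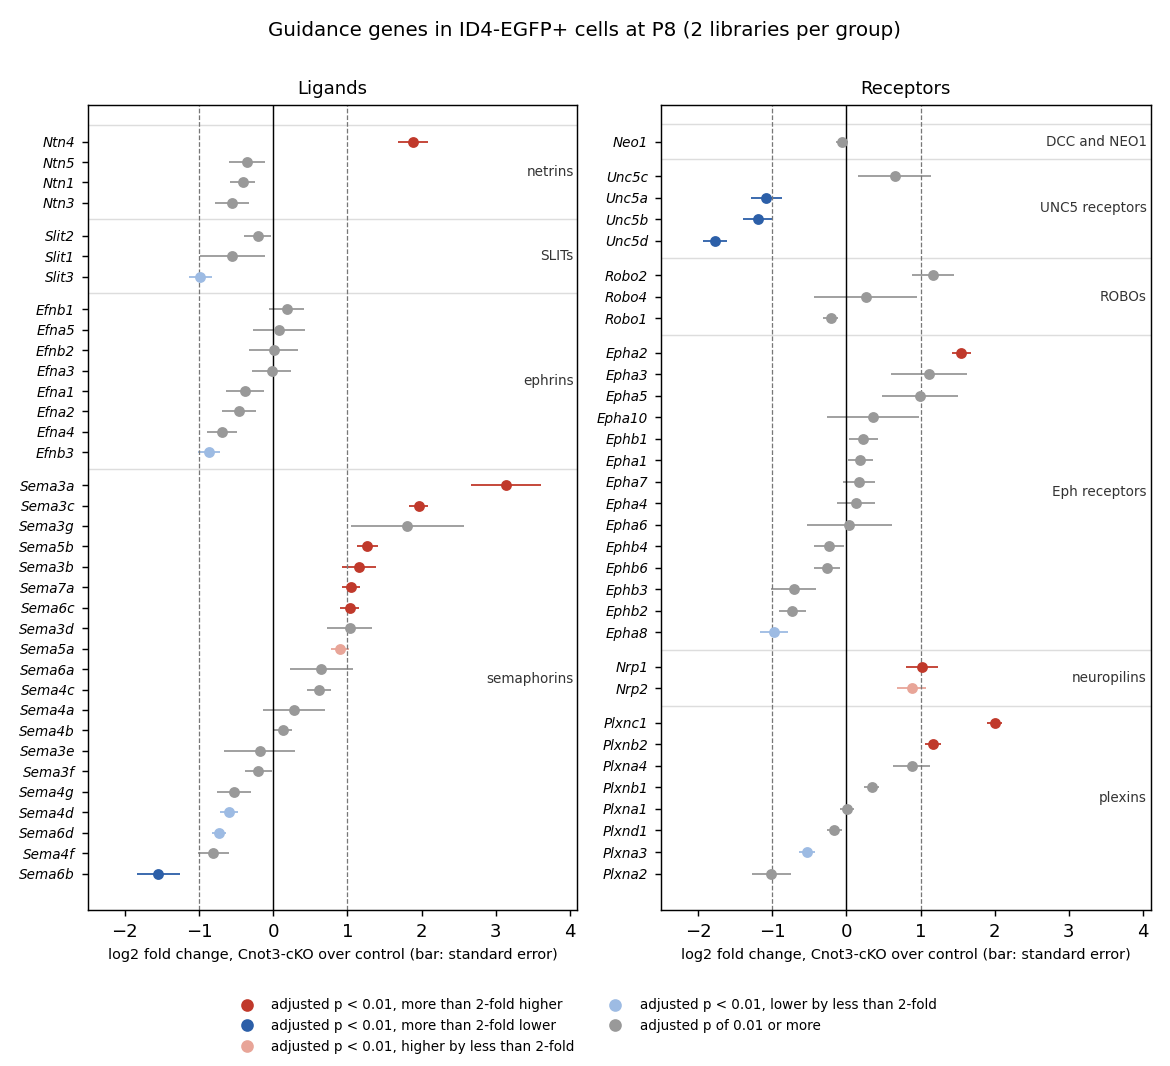
Log2 fold change (x axis, *Cnot3*-cKO over control, 2 libraries per group) of the 67 tested guidance genes, with ligands in the left panel, receptors in the right panel and genes grouped by family on the y axis; bars are standard errors and dashed lines mark a 2-fold change. Red points past the right dashed line fall mainly among the semaphorins and plexins, and *Unc5a*, *Unc5b* and *Unc5d* stand together in dark blue between -1.77 and -1.08.

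Of the 35 ligand genes, 7 were called higher and 1 lower. Of 20 tested semaphorin genes, 6 were called higher and 1 was called lower. Their log2 fold changes ran from -1.55 to 3.14 around a median of 0.63. Class 3 semaphorins are secreted, and 3 of 7 were called higher (median log2 fold change 1.16). *Sema3a*, the founding secreted repellent that acts through NRP1 and class A plexins, was at 0.372 and 0.261 CPM in controls against 3.44 and 2.20 CPM in *Cnot3*-cKO. It was barely expressed in controls (15 and 11 reads) and rose 8.79-fold, the largest change of any member (log2 fold change 3.14, SE 0.47, adjusted p = 6.80e-04; chr5:13125414-13602565, plus strand, GRCm38). *Sema3c*, a secreted ligand of both neuropilins, was at 12.6 and 14.1 CPM in controls, compared with 53.4 and 50.1 CPM in *Cnot3*-cKO, a 3.88-fold rise with the groups far apart (log2 fold change 1.96, SE 0.13, adjusted p = 2.20e-06; chr5:17574281-17730268, plus strand). *Sema3b*, which signals through neuropilins, was at 4.87 and 3.73 CPM in controls against 8.87 and 10.3 CPM in *Cnot3*-cKO, again without overlap between the groups (log2 fold change 1.16, SE 0.23, adjusted p = 0.00371; chr9:107597674-107609229, minus strand). This call was lost without control replicate 2, where the log2 fold change was 0.97.

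The other class 3 genes did not pass. *Sema3d* was at 1.79 and 1.78 CPM in controls, compared with 3.44 and 3.84 CPM in *Cnot3*-cKO (log2 fold change 1.03, adjusted p = 0.0282). *Sema3g* had only 6 and 14 control reads against 29 and 13 in *Cnot3*-cKO, so that its log2 fold change of 1.81 carried an SE of 0.76 (adjusted p = 0.117). *Sema3f* and *Sema3e* had log2 fold changes of -0.20 and -0.18 (adjusted p = 0.495 and 0.85). Summed Sertoli, Leydig, macrophage, endothelial and peritubular myoid markers, given above, were all higher in the same libraries as *Sema3a*, *Sema3b* and *Sema3c*. Single genes of the endothelial and peritubular myoid lists went in both directions. The part of any of these cells in the class 3 values was not tested.

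Class 5 semaphorins are transmembrane proteins with thrombospondin repeats, and both of them rose. *Sema5b* was at 16.6 and 15.2 CPM in controls against 40.6 and 36.1 CPM in *Cnot3*-cKO (log2 fold change 1.27, SE 0.14, adjusted p = 7.32e-05; chr16:35541145-35664732, plus strand). *Sema5a* was at 27.5 and 25.2 CPM in controls, compared with 51.5 and 46.6 CPM in *Cnot3*-cKO, a rise just under 2-fold (log2 fold change 0.90, SE 0.12, adjusted p = 3.51e-04). In neither gene did the groups overlap, which adds no separate evidence.

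The class 6 semaphorins, transmembrane ligands of class A plexins, went in both directions. *Sema6c* was at 22.8 and 24.9 CPM in controls against 53.0 and 44.7 CPM in *Cnot3*-cKO, so both *Cnot3*-cKO libraries were well above the controls (log2 fold change 1.03, SE 0.13, adjusted p = 2.09e-04; chr3:95160457-95174024, plus strand). Its rise stood close to the 2-fold limit, and the log2 fold change was 0.96 without control replicate 1 and 0.90 without *Cnot3*-cKO replicate 1. *Sema6b* was at 5.44 and 8.32 CPM in controls, compared with 2.74 and 1.99 CPM in *Cnot3*-cKO, and was the only ligand called lower (log2 fold change -1.55, SE 0.29, adjusted p = 0.00295; chr17:56123085-56140343, minus strand). *Sema6d*, the most highly expressed semaphorin in controls at 11.3 CPM per kb, fell from 126 and 112 CPM to 73.8 and 70.0 CPM, which was less than 2-fold (log2 fold change -0.73, SE 0.10, adjusted p = 3.05e-04). *Sema6a* was near 1 CPM in controls and had a log2 fold change of 0.65 (adjusted p = 0.323).

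*Sema7a* encodes the only semaphorin anchored to the membrane by a glycolipid, and its protein binds PLXNC1 and integrins. It was at 21.5 and 24.1 CPM in controls against 45.9 and 48.3 CPM in *Cnot3*-cKO, tight within each group and without overlap (log2 fold change 1.05, SE 0.12, adjusted p = 1.39e-04; chr9:57940112-57962865, plus strand). Without control replicate 1 the log2 fold change was 0.95, below the fold limit. Its promoter is shown because *Sema7a* and its receptor gene *Plxnc1* rose together. The window runs from 250 bases before to 50 bases after the RefSeq gene start (GRCm38.p6, chr9:57939862-57940161, plus strand), and capitals mark GGGCGG, the core of a GC box, on either strand. It held 2 such matches, side by side, and 23 CG dinucleotides.
Sema7a promoter: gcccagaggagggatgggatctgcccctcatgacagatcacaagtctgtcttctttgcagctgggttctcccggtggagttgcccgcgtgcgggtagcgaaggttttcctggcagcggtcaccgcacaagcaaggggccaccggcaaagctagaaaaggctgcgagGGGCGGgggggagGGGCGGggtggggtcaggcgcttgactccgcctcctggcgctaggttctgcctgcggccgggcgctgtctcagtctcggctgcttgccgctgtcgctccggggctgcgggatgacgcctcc

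Class 4 semaphorins, transmembrane ligands read mainly by plexin B receptors, had no called gene among 6 tested. *Sema4d*, the classical ligand of PLXNB1, fell from 68.7 and 55.6 CPM to 42.5 and 39.3 CPM (log2 fold change -0.60, SE 0.12, adjusted p = 0.00477). It no longer passed without *Cnot3*-cKO replicate 2 (adjusted p = 0.0176), with upper quartile scaling (adjusted p = 0.0113) or with pan-germ cell scaling (log2 fold change -0.40, adjusted p = 0.056). *Sema4c*, a ligand of PLXNB2, was at 12.8 and 12.6 CPM in controls and 17.9 and 21.02 CPM after deletion and did not pass (log2 fold change 0.62, adjusted p = 0.0176). *Sema4f* was at 11.2 and 13.3 against 8.08 and 5.94 CPM (log2 fold change -0.81, adjusted p = 0.0175). *Sema4b* was among the steadiest of the well-expressed members, with a log2 fold change of 0.13 (SE 0.12, adjusted p = 0.51). No class 4 gene was called by DESeq2 either, although 4 of the 6 had an unadjusted p under 0.05. Over all 67 tested members, 38 were under that limit. The share of all tested genes under it is not given here. This count, and those for other families and for chromosome intervals below, are therefore descriptive and no sign of a change.

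The summed level of the semaphorins per kb of exon was 56.2 and 57.0 CPM per kb in controls and 73.3 and 70.7 CPM per kb in *Cnot3*-cKO. Over all ligand genes the sums were 102.0 and 106.7 against 108.1 and 109.5 CPM per kb, and the sums of ephrins and SLITs were lower in *Cnot3*-cKO.

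None of the 8 ephrin genes was called by edgeR or DESeq2, 2 had an unadjusted p under 0.05, and the median log2 fold change was -0.20. *Efnb3*, a transmembrane ephrin known from the midline of the developing spinal cord, was the only one to fall, from 28.7 and 28.8 CPM in controls to 14.4 and 17.0 CPM in *Cnot3*-cKO (log2 fold change -0.87, SE 0.15, adjusted p = 0.00142). Its libraries agreed closely within the controls. The GPI-anchored *Efna4* was at 11.2 and 13.1 against 6.97 and 8.10 CPM and did not pass (log2 fold change -0.69, adjusted p = 0.0258). *Efna3*, *Efnb2* and *Efna5* had log2 fold changes between -0.02 and 0.08. Summed over the family, ephrins were at 28.5 and 34.6 CPM per kb in controls and 22.1 and 23.5 CPM per kb in *Cnot3*-cKO.

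Of the SLIT ligands, *Slit3* fell and no gene was called. It was at 47.3 and 38.0 CPM in controls, compared with 18.3 and 24.9 CPM in *Cnot3*-cKO, slightly short of 2-fold (log2 fold change -0.98, SE 0.16, adjusted p = 0.00139). Per kb of exon, *Slit3* was the most abundant SLIT in controls at 7.03 CPM per kb, and it fell to 3.56 CPM per kb. *Slit2* was at 16.2 and 14.6 against 11.7 and 14.8 CPM, with overlapping groups (log2 fold change -0.21, adjusted p = 0.47). *Slit1* was near 1 CPM (log2 fold change -0.55, adjusted p = 0.429). With *Slit3* setting the level, the family sum was 8.64 and 7.13 CPM per kb in controls and 3.63 and 4.88 CPM per kb in *Cnot3*-cKO. Leaving out 1 library at a time moved *Slit3* between -1.22 and -0.79.

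Netrins had a single called gene. *Ntn4*, a basement membrane netrin that binds laminin, was at 4.37 CPM in both controls, compared with 14.3 and 17.9 CPM in *Cnot3*-cKO, a 3.69-fold rise (log2 fold change 1.88, SE 0.20, adjusted p = 6.51e-05; chr10:93640681-93747207, plus strand). The netrins that act as classical guidance cues were lower in *Cnot3*-cKO but did not pass. *Ntn1* was at 17.7 and 18.4 CPM in controls against 12.2 and 14.9 CPM in *Cnot3*-cKO (log2 fold change -0.41, adjusted p = 0.104), and *Ntn3* and *Ntn5* had log2 fold changes of -0.56 and -0.35 (adjusted p = 0.113 and 0.349). *Ntn5* shares 23.4% of its exon bases with *Sec1* on the opposite strand, and the strand setting used for counting is not stated in the sources used here. The family sum was 8.65 and 8.01 CPM per kb in controls and 9.02 and 10.4 CPM per kb in *Cnot3*-cKO.

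**Figure D2:**
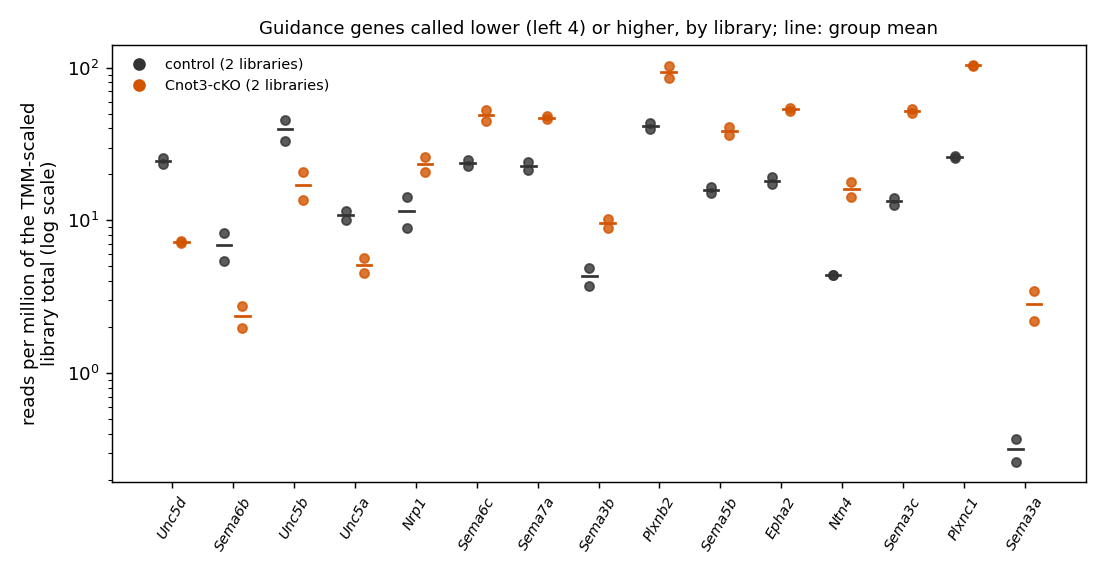
Level of each called guidance gene in each library (y axis, CPM on the TMM-scaled total, log scale), with gene symbols on the x axis, control libraries in black, *Cnot3*-cKO libraries in orange and lines at the group means. In none of the 15 genes do the groups overlap, and *Plxnc1* shows the tightest separation, from 26.3 and 25.7 CPM to 103.0 and 104.9 CPM. The genes were called on these same libraries, so the lack of overlap is no separate evidence.

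Turning to the receptors, 4 of 32 tested genes were called higher and 3 lower. Plexins are single-pass receptors whose intracellular part regulates small GTPases. *Plxnc1*, the receptor of SEMA7A, was at 26.3 and 25.7 CPM in controls, compared with 103.0 and 104.9 CPM in *Cnot3*-cKO, a 3.99-fold rise with almost no spread within groups (log2 fold change 2.0, SE 0.10, adjusted p = 7.37e-07; chr10:94790866-94944835, minus strand). It had the lowest adjusted p of any member, and leaving out any 1 library kept its log2 fold change between 1.97 and 2.0. Only 1.38% of its exon bases are shared with another annotated gene, *Gm48718*. *Plxnb2*, a widely expressed receptor of class 4 semaphorins, was at 43.4 and 39.8 CPM in controls against 102.0 and 85.4 CPM in *Cnot3*-cKO, also without overlap (log2 fold change 1.17, SE 0.11, adjusted p = 3.27e-05; chr15:89155549-89180788, minus strand). The promoter of *Plxnc1* (RefSeq, GRCm38.p6, chr10:94944796-94945095, minus strand), printed like that of *Sema7a*, held 4 GGGCGG matches and 30 CG dinucleotides.
Plxnc1 promoter: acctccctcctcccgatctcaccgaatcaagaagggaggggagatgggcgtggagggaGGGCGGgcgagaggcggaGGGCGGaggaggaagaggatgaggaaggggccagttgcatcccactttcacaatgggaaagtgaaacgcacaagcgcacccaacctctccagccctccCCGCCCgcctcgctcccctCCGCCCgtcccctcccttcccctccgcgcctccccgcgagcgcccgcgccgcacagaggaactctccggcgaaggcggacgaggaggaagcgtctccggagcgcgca

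The class A plexins, which pair with neuropilins or bind class 6 semaphorins directly, had no called gene. *Plxna1* was the most abundant plexin in controls, at 197 and 230 CPM, and *Cnot3*-cKO libraries were at 215.0 and 215.4 CPM, inside the range of the controls (log2 fold change 0.01, SE 0.09, adjusted p = 0.947). *Plxna3* fell from 56.0 and 54.6 CPM to 38.6 and 38.0 CPM (log2 fold change -0.53, SE 0.11, adjusted p = 0.00436). It no longer passed without *Cnot3*-cKO replicate 1 (adjusted p = 0.0203), without *Cnot3*-cKO replicate 2 (adjusted p = 0.0295) or with pan-germ cell scaling (log2 fold change -0.32, adjusted p = 0.0661). *Plxna2*, at 4.99 and 6.87 against 2.87 and 3.003 CPM, was lower by slightly more than 2-fold but missed the adjusted p threshold (log2 fold change -1.01, adjusted p = 0.0171). *Plxna4* went the other way, from 3.18 and 3.30 to 6.71 and 5.27 CPM, and missed it as well (log2 fold change 0.88, adjusted p = 0.026). *Plxnd1*, a receptor of SEMA3E, had a log2 fold change of -0.16 (SE 0.10, adjusted p = 0.296), and *Plxnb1* one of 0.34 (adjusted p = 0.0249). *Plxnb3* had 4 to 15 reads per library and was not tested.

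Both neuropilins rose. *Nrp1*, the co-receptor of SEMA3A that also binds VEGF, was at 14.2 and 8.87 CPM in controls, compared with 20.8 and 25.9 CPM in *Cnot3*-cKO (log2 fold change 1.02, SE 0.21, adjusted p = 0.00506; chr8:128358604-128503363, plus strand). The controls were spread widely, and the call was lost without control replicate 2, at a log2 fold change of 0.71, and without *Cnot3*-cKO replicate 2, at 0.85. *Nrp2* was at 8.62 and 6.70 against 15.2 and 13.0 CPM (log2 fold change 0.88, SE 0.20, adjusted p = 0.0079). It no longer passed without control replicate 2 (log2 fold change 0.70, adjusted p = 0.0146) or without *Cnot3*-cKO replicate 1 (0.75, adjusted p = 0.0365). Neuropilins are also expressed by endothelial cells. The endothelial marker *Kdr*, which encodes a VEGF receptor and NRP1 partner, rose from 3.48 and 3.11 CPM to 8.25 and 6.60 CPM (log2 fold change 1.17, SE 0.24, adjusted p = 0.00488). Of the 8 endothelial markers, only *Kdr* and *Pecam1* were called. *Tie1*, *Egfl7*, *Flt1*, *Cdh5* and *Tek* did not pass, with log2 fold changes from -0.29 to 0.48, and *Emcn* was not tested. The part of endothelial RNA in the neuropilin values was not tested.

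Of the 14 Eph receptor genes, only *Epha2* was called by either edgeR or DESeq2, and 5 had an unadjusted p under 0.05. *Epha2*, a receptor tyrosine kinase found on many epithelia, was at 17.2 and 19.3 CPM in controls against 51.8 and 54.8 CPM in *Cnot3*-cKO, a 2.92-fold rise (log2 fold change 1.55, SE 0.13, adjusted p = 8.19e-06; chr4:141301240-141329384, plus strand). *Epha8* fell from 17.2 and 24.7 CPM to 10.1 and 11.3 CPM, less than 2-fold (log2 fold change -0.97, SE 0.19, adjusted p = 0.00418), and stood just outside the threshold with pan-germ cell scaling (-0.75, adjusted p = 0.0103). Among the rest, *Ephb2* was nearest to the threshold, at 15.8 and 19.1 against 9.89 and 11.1 CPM (log2 fold change -0.73, SE 0.18, adjusted p = 0.0111). *Epha3*, with 20 to 40 reads per library, had the largest estimate of those not called (log2 fold change 1.11, SE 0.51, adjusted p = 0.148). Summed over the family, Eph receptor levels were 28.4 and 34.9 CPM per kb in controls and 34.7 and 35.4 CPM per kb in *Cnot3*-cKO, with overlapping groups, and *Epha2* went from 3.90 to 11.4 CPM per kb within this sum.

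ROBO receptors did not pass in any gene. *Robo1*, which carried nearly all ROBO reads per kb, was at 122 and 102 CPM in controls, compared with 95.3 and 99.0 CPM in *Cnot3*-cKO (log2 fold change -0.21, SE 0.10, adjusted p = 0.184). *Robo2* was at 4.02 and 2.40 against 6.67 and 7.79 CPM and stood directly outside the threshold (log2 fold change 1.17, SE 0.28, adjusted p = 0.0104). It was called by DESeq2, with a log2 fold change of 1.16, and under several other settings. *Robo4*, an endothelial member, had 10 to 22 reads per library (log2 fold change 0.26, adjusted p = 0.85), and *Robo3*, with 4 to 10 reads, was not tested.

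Of the 4 UNC5 receptor genes, whose proteins mediate repulsion from netrins and carry a death domain, 3 were called lower. *Unc5d* was at 25.8 and 23.5 CPM in controls against 7.11 and 7.37 CPM in *Cnot3*-cKO, down to 0.294 of the control level (log2 fold change -1.77, SE 0.16, adjusted p = 2.42e-05; chr8:28646717-29219636, minus strand). It was the most strongly lowered member and kept its call without any 1 library and under every scaling and filter tried. *Unc5b* was at 33.2 and 45.6 CPM in controls, compared with 13.6 and 20.8 CPM in *Cnot3*-cKO, with more spread in both groups but no overlap (log2 fold change -1.19, SE 0.20, adjusted p = 0.0014; chr10:60762593-60831581, minus strand). *Unc5a* was at 10.1 and 11.5 against 4.55 and 5.66 CPM (log2 fold change -1.08, SE 0.21, adjusted p = 0.00377; chr13:54949411-55006018, plus strand). *Unc5c* was the exception and was hardly expressed, at 0.77 and 0.879 CPM in controls against 1.68 and 0.943 CPM in *Cnot3*-cKO (log2 fold change 0.65, SE 0.49, adjusted p = 0.402). Both *Unc5a* and *Unc5b* lost their call without control replicate 2, at log2 fold changes of -1.0 and -0.95, and without *Cnot3*-cKO replicate 1, at -0.94 and -0.93. Scaled to pan-germ cell markers they also lost it, at -0.87 and -0.98.

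Summed over the family, UNC5 levels were 10.6 and 12.6 CPM per kb in controls and 4.11 and 5.52 CPM per kb in *Cnot3*-cKO. Per kb, *Unc5b* was the most abundant in controls at 6.29, followed by *Unc5d* at 2.67 and *Unc5a* at 2.59 CPM per kb, whose levels did not differ beyond the spread of their libraries, and then *Unc5c* at 0.0431 CPM per kb. In *Cnot3*-cKO the means were 2.74 for *Unc5b*, 1.22 for *Unc5a* and 0.785 CPM per kb for *Unc5d*. In the same libraries the 13 pan-germ cell markers had a median log2 fold change of -0.08, and 1 of them rose and 3 fell at adjusted p under 0.01. Of the 9 markers of undifferentiated spermatogonia, 4 rose and 2 fell. The part of the cells marked by either list in the UNC5 values was not tested. The promoter of *Unc5b* (RefSeq, GRCm38.p6, chr10:60831532-60831831, minus strand) is given for comparison with the risen genes. It also held GGGCGG, in 3 places, together with 36 CG dinucleotides.
Unc5b promoter: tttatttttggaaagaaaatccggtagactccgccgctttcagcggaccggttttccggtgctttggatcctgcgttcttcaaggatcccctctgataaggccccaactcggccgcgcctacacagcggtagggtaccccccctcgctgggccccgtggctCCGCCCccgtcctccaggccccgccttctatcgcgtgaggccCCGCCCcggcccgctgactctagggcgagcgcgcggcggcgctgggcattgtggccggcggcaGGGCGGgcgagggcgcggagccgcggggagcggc

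DCC and neogenin, the other netrin receptors, differed widely in level. *Neo1*, which encodes neogenin and binds repulsive guidance molecules as well as netrins, was the most abundant guidance gene per kb of exon, at 27.6 CPM per kb in controls. It was at 236 and 246 CPM in controls against 224 and 237 CPM in *Cnot3*-cKO, overlapping groups with a log2 fold change of -0.06 (SE 0.08, adjusted p = 0.655). *Dcc* had 5 and 12 control reads against 2 and 31 in *Cnot3*-cKO and was not tested.

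**Figure D3:**
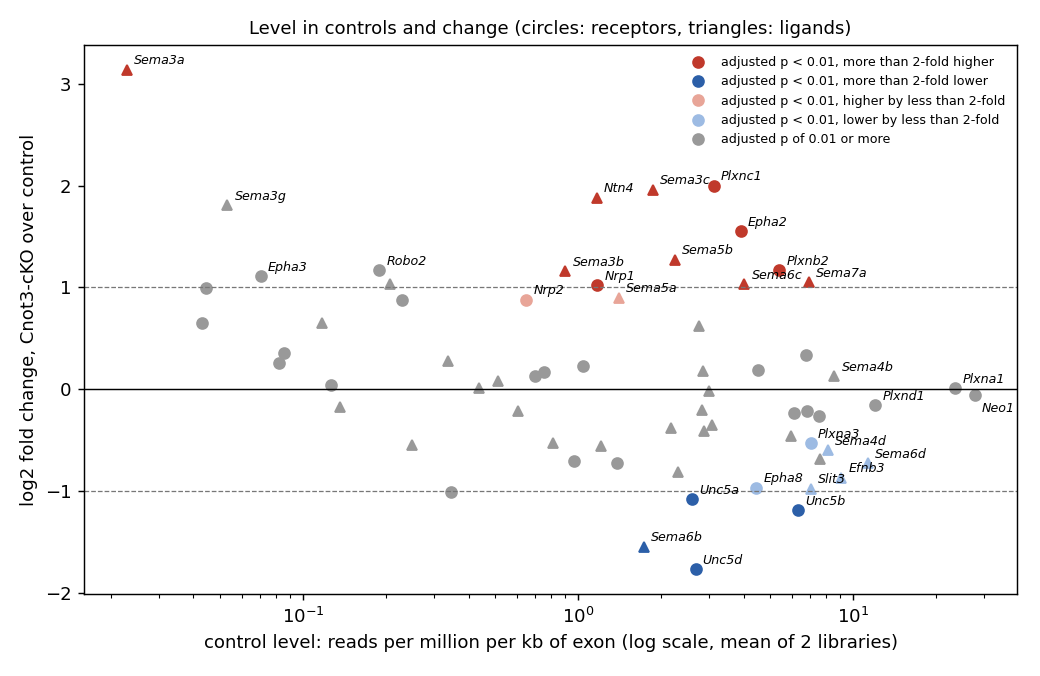
Control level of each tested guidance gene (x axis, CPM per kb of exon, mean of 2 libraries, log scale) against its log2 fold change in *Cnot3*-cKO (y axis); triangles are ligands, circles are receptors, and dashed lines mark a 2-fold change. The 3 genes with the highest control level, *Neo1*, *Plxna1* and *Plxnd1*, lie near 0, while the called genes lie at middle levels, apart from *Sema3a* at the far left.

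Abundance in controls and change were therefore set side by side. The 3 highest members per kb in controls were *Neo1* (27.6), *Plxna1* (23.6) and *Plxnd1* (12.0 CPM per kb), and none of them passed. In *Cnot3*-cKO, *Sema7a* reached 14.3, *Plxnc1* 12.45 and *Plxnb2* 12.1 CPM per kb, above the 10.8 CPM per kb of *Plxnd1*. *Epha2* reached 11.4 CPM per kb. In controls, *Sema7a*, *Plxnc1*, *Plxnb2* and *Epha2* had been at 6.91, 3.12, 5.39 and 3.90 CPM per kb. Receptor genes together were at 132.8 and 143.8 CPM per kb in controls and 149.0 and 150.1 CPM per kb in *Cnot3*-cKO.

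Known ligand and receptor partners did not all move alike. For SEMA7A and PLXNC1, both genes rose. For the class 3 semaphorins and neuropilins, *Sema3a*, *Sema3b*, *Sema3c*, *Nrp1* and *Nrp2* rose. Leaving out single libraries, as given above, took *Sema3b* and *Nrp1* below the fold limit and *Nrp2* out of the threshold. The class A plexin partners had log2 fold changes from -1.01 to 0.88, and only *Plxna3* passed. It no longer passed without 1 or the other *Cnot3*-cKO library, though its log2 fold change stayed at -0.55 (replicate 1 left out) and -0.53 (replicate 2 left out). Among netrins and netrin receptors, the laminin-binding *Ntn4* rose, *Unc5a*, *Unc5b* and *Unc5d* fell, and *Neo1* did not pass. The other netrins, *Ntn1*, *Ntn3* and *Ntn5*, had log2 fold changes of -0.41, -0.56 and -0.35 and did not pass. Whether NTN4 acts through UNC5 receptors in these cells was not tested. For SLITs and ROBOs, *Slit3* fell and no receptor passed. For ephrin-A ligands and EPHA2, the receptor gene rose and none of the 5 *Efna* genes passed. RNA from mixed cells does not show which cell carried the ligand and which the receptor.

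A list of co-receptor and effector genes of the same pathways was examined with the members. The count files held 61 of them, and 60 were tested. Called genes numbered 5 higher (8.33%) and 2 lower (3.33%), against 4.03% and 0.735% of all tested genes, and the median log2 fold change was -0.05. *Rnd3*, whose protein binds plexins and lowers actomyosin contraction, rose from 1.89 and 1.81 CPM to 6.36 and 7.86 CPM (log2 fold change 1.94, SE 0.26, adjusted p = 3.21e-04). *Farp1*, whose protein binds class A plexins, rose from 5.64 and 4.83 to 14.7 and 12.0 CPM (log2 fold change 1.35, SE 0.21, adjusted p = 7.50e-04). *Mical1*, a plexin-linked enzyme that oxidizes actin, rose from 11.5 and 12.1 to 24.1 and 30.1 CPM (log2 fold change 1.21, SE 0.16, adjusted p = 3.07e-04), but 15.0% of its exon bases lie opposite *Smpd2*, so reads of the 2 genes may be mixed if strand was not used. The collapsin response mediators, which carry semaphorin signals to microtubules, were split. *Dpysl2* rose from 48.6 and 43.5 to 95.8 and 98.3 CPM (log2 fold change 1.08, SE 0.10, adjusted p = 2.78e-05), whereas *Dpysl3* fell from 41.2 and 39.1 to 18.6 and 20.4 CPM (log2 fold change -1.04, SE 0.13, adjusted p = 2.01e-04).

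*Rgma*, which encodes a ligand of neogenin, fell from 12.2 and 12.5 CPM to 4.90 and 5.90 CPM (log2 fold change -1.19, SE 0.20, adjusted p = 0.00145). Its receptor gene *Neo1* did not pass. *Kdr*, already described with the neuropilins, was the fifth gene called higher, and it also stands in the endothelial list. The calls of 4 genes depended on a setting or library. *Kdr* had a log2 fold change of 0.99 without *Cnot3*-cKO replicate 1, *Dpysl2* 0.99 without control replicate 2 and *Dpysl3* -0.99 without *Cnot3*-cKO replicate 1, and none was then called. *Dpysl3* also lost its call with library size only, at -0.97, and with pan-germ cell scaling, at -0.83. *Rgma* lost its call with pan-germ cell scaling, at -0.98. Under the fold limit, *Dpysl4*, *Vegfa*, *Trio* and *Tiam1* rose by log2 fold changes of 0.38 to 0.89, and *Met*, *Ptk2*, *Mical3*, *Abl2* and *Chn1* fell by 0.51 to 0.62 on the log2 scale.

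Sequence features that were not used to choose the genes were then read from the annotation. RefSeq promoters (300 bases, GRCm38.p6) matched 60 of the 70 members. GGGCGG, searched on both strands with overlaps counted, was in 44 of these (73.3%), against 57.4% of 13955 promoters of tested genes and 35.9% of all 27025 promoters. It was in 8 of 10 matched promoters of genes called higher (80.0%) and in 3 of 3 of genes called lower, so it was common on both sides. TATAAA was in 3.33% of member promoters and 8.39% of promoters of tested genes. Members had a median of 22.5 CG dinucleotides per promoter, and tested genes 18.

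The CCR4-NOT complex shortens poly(A) tails and is brought to many transcripts by proteins that bind the 3′ UTR, so 3′ UTRs were searched on the transcript strand for TGTANATA, the element of Pumilio proteins, and TATTTAT, an AU-rich element core. For each gene, the transcript with the longest coding sequence in GENCODE M21 was used. TGTANATA was in 30 of 67 members (44.8%) and in 23.3% of 15675 tested genes, while the median 3′ UTR was also longer in members, at 1363 against 927 bases. Per kb of 3′ UTR the members held 0.334 matches and the tested genes 0.238. All 4 genes called lower had it (6 matches, 0.564 per kb), compared with 3 of 11 genes called higher (3 matches, 0.202 per kb) and 44.2% of the members not called. The median 3′ UTR was 1831 bases in genes called lower, 986 in genes called higher and 1501 in members not called. A longer 3′ UTR gives more room for a match. TATTTAT was in 6 of 11 genes called higher, 1 of 4 called lower, 43.3% of the members and 26.7% of tested genes. Per kb of 3′ UTR, its matches numbered 0.472, 0.282, 0.342 and 0.29 in these sets. These groups are small, and a match is a description of the sequence, not a binding site.

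The TGTANATA matches of the called genes are given with 6 bases on each side, on the transcript strand and with the match in capitals, because each of the 4 genes called lower held at least 1. The first 6 belong to genes that fell and the last 3 to genes that rose.
Unc5a (chr13:55005983-55006002, plus strand): tgtgaaTGTAAATAaattat
Unc5b (chr10:60762681-60762700, minus strand): ccattcTGTAAATAacttgt
Unc5b (chr10:60762670-60762689, minus strand): ataactTGTAAATAgtcttt
Unc5d (chr8:28652467-28652486, minus strand): ggtatcTGTAGATAcaagta
Unc5d (chr8:28646914-28646933, minus strand): agcacaTGTACATAtctata
Sema6b (chr17:56123234-56123253, minus strand): cgccccTGTAAATAcagccc
Plxnc1 (chr10:94792965-94792984, minus strand): cctttcTGTAAATAgagctg
Sema3a (chr5:13602234-13602253, plus strand): caaaggTGTAAATAattttg
Sema3c (chr5:17730062-17730081, plus strand): ttgtatTGTACATAaaatta
The matches of *Unc5b* start at bases 2514 and 2525 of its 3′ UTR of 2615 bases. In all other genes called higher, no match was found in the transcript used.

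**Figure D4:**
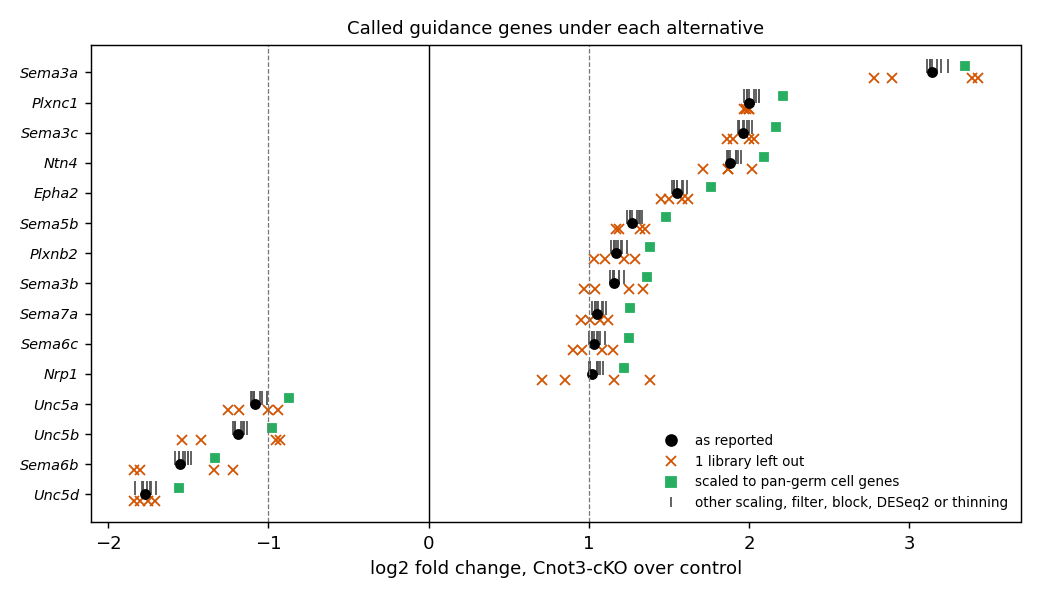
Log2 fold change (x axis, *Cnot3*-cKO over control) of the 15 called guidance genes (y axis) as reported and under each alternative: 1 library left out, scaling to pan-germ cell markers, and other scalings, filters, the replicate block, DESeq2 and thinning. All values stay on the same side of 0, and *Nrp1*, from 0.71 to 1.38 with 1 library left out, spreads most around the dashed 2-fold line among the genes called higher.

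Direction was kept for all 15 called members in each alternative fitted. *Epha2*, *Sema3c*, *Ntn4*, *Plxnc1*, *Plxnb2*, *Sema5b*, *Sema6b* and *Unc5d* kept their call in all alternatives except the stricter test against a fold change of 2, which kept only *Plxnc1* and *Sema3c*. *Sema3a* did so too, but was removed by a filter at a mean of 50 reads. With 2 libraries per group an exact permutation test of 1 gene cannot go below p = 0.333, so all p-values rest on the spread fitted across genes.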

How the data were processed

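RNA-seq was performed by the authors on sorted ID4-EGFP+ cells and 2 control and 2 *Cnot3*-cKO libraries were analysed here. The paper states more replicates for this experiment than the 2 libraries per group used here. Per the labels and the study's methods, the authors filtered reads by quality (mean Phred score of 20 or more), used STAR for alignment to mm10 and assigned reads to genes by featureCounts. The deposited files hold raw read counts that had not been normalized. Strand and multi-mapping settings are not given in the sources used here.

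Counts were tested with edgeR 4.0.16 in R 4.3.3 (TMM scaling, default expression filter, quasi-likelihood F test, no covariate) over all 23952 genes that passed the filter, with Benjamini-Hochberg adjustment. The limits for a call (fold change above 2, adjusted p under 0.01) are those of the study. The study used DESeq2, which served as an alternative here (DESeq2 1.42.0). Standard errors were derived from the F statistic. The 3 members below the filter were not tested. In simulated counts with the same spread for every gene, 198 of 200 genes changed 4-fold were recovered among 23189 genes, with 0 false calls. Changed genes were drawn from the better-expressed ones. Recovery of changes near 2-fold, of genes with few reads or with spreads that differ between genes was therefore not tested.

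Named genes were all called members, members past adjusted p 0.01 under 2-fold, the 3 largest changes not called, the 3 highest control levels per kb, the 3 smallest changes at 10 CPM or more, and called effectors. Other members named in the text were chosen after their values were seen. Members and lists were chosen with earlier results of these data known. Coordinates, exon lengths and 3′ UTRs came from GENCODE M21 (GRCm38, the assembly also called mm10), and promoters from RefSeq (GRCm38.p6). Alternatives were other thresholds, scalings and filters, DESeq2, a replicate block, thinning to the smallest total, and leaving out each library.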

Additional observations from a re-analysis of the deposited data

How the results depend on the processing

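Member calls of 11 higher and 4 lower became 2 and 0 in a test against a fold change of 2, which is stricter by construction, and the lower calls became 10 with no fold limit. Effector calls of 5 higher and 2 lower became 9 and 7 with no fold limit and 0 and 0 in the test against a fold change of 2. Scaled to pan-germ cell markers, which moved the median log2 fold change of all genes to 0.22, members had 15 higher and 2 lower calls and effectors 0 lower. Lower effector calls were 4 at adjusted p under 0.05, 4 with no filter and 1 with library size only. DESeq2 called 12 members higher and 4 lower. Leaving out 1 library gave 9 to 11 members higher, 3 to 8 lower, 4 to 6 effectors higher and 1 to 4 lower, and *Cnot3* from -1.59 to -1.37. The 8 lower members came without *Cnot3*-cKO replicate 2, where *Slit3*, *Epha8*, *Efnb3* and *Ephb3* were added. Lower effector calls were 1 without *Cnot3*-cKO replicate 1 and 4 without control replicate 1. Small changes turned sign for *Neo1* (0.0028 with library size only, 0.15 with pan-germ cell scaling), *Plxna1* (-0.016 with no filter, and -0.11 to 0.12 with 1 library left out), *Plxnd1* (0.055 with pan-germ cell scaling) and *Sema4b* (-0.024 without control replicate 1 and up to 0.27 without control replicate 2). Apart from the fold limits, the cause was not tested. The labels do not say whether libraries with the same replicate number were handled together. Deviations of the libraries numbered 1 correlated at 0.0713 over 16437 genes, a single value that does not settle it. With the replicate block, 12 members were called higher and 5 lower, adding *Robo2* and *Plxna2*. Over the single-gene values, 434 of 478 kept their direction and their side of the threshold for that gene, 28 kept direction but fell short of it, 10, all for *Robo2*, newly passed it and 6 turned sign. For members that passed below 2-fold, this threshold was the adjusted p alone. Both *Cnot3*-cKO libraries were shallower, and members such as *Sema3g*, *Robo4* and *Epha10* rest on 6 to 35 reads per library.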

Other observations

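Some members called higher lie near another member on a chromosome, so the genes between them were read from the same fit. *Ntn4* and *Plxnc1* lie within 1.3 Mb (chr10:93640681-94944835, GRCm38), with 32 annotated genes between them. None of the 17 tested genes there was called by edgeR or DESeq2, 4 had an unadjusted p under 0.05, and their median log2 fold change was -0.04. *Sema3a* and *Sema3c* span 4.6 Mb (chr5:13125414-17730268), an interval that also holds *Sema3e*. Of its 16 tested genes, 0 were called by edgeR or DESeq2 and 1 had an unadjusted p under 0.05, with a median log2 fold change of 0.03. *Sema3f*, the neighbour of *Sema3b*, was itself not called (log2 fold change -0.2). Between *Sema3b* and *Sema3f* (chr9:107597674-107710475), 0 of 4 tested genes were called by edgeR or DESeq2 and 2 had an unadjusted p under 0.05. The intervals were chosen after the calls were seen.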
